A study of Mus musculus with 8 samples.

Results

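Depletion of ZZZ3 was compared with control in mouse embryonic stem cells (ESCs) by total RNA sequencing. The comparison held 5 of the 8 samples of the series, the 3 labelled Zzz3 auxin and the 2 labelled Control, all chosen by their labels, and it was read across 17532 tested genes of the 55401 in the files. The Zzz3 auxin cells carried ZZZ3 fused to an auxin-inducible degron (AID) and received auxin at 500 µM for 24 h. Cells were grown on gelatin in serum with leukaemia inhibitory factor and 2 kinase inhibitors (2i), under G418 to select for Tir1, the plant F-box protein that the degron needs. For the controls the labels name neither a cell line nor a treatment, so effects of auxin, of a difference in line and of the loss of ZZZ3 cannot be told apart. The supplement of the study speaks of solvent and auxin in AID cells, and its methods call the reference WT. The labels do not say that samples of a group came from separate cultures, so P values measure the spread between these samples. The 3 Yeats2 auxin samples, depleted of another subunit of the same complex, entered the fit to estimate the spread.

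ZZZ3 is a protein with a ZZ-type zinc finger that binds the tail of histone H3, and a subunit of ATAC, a coactivator complex that acetylates histones through KAT2A or KAT2B and that also holds KAT14, YEATS2, TADA2A, MBIP, WDR5 and DR1. ATAC is known for its association with promoters of housekeeping genes, ribosomal protein genes among them. SAGA is a related coactivator that shares the KAT2 module. A degron removes the protein, so the mRNA of its gene need not change. The study placed these RNA levels beside nascent transcription, which was not analysed here, to ask how RNA abundance responds when a coactivator is lost.

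The 5 samples had between 14315120 (Zzz3 auxin 3) and 27344876 (Zzz3 auxin 2) reads assigned to genes. Levels are given as CPM, the count of a gene relative to the size of its library after scaling by the trimmed mean of M values. In bulk RNA, fewer cells of a type and less RNA per cell cannot be told apart. Markers of ESCs were present, with *Pou5f1* at 275 and 420.2 CPM in the controls and 558, 463 and 584 CPM in Zzz3 auxin and *Nanog* at 772 and 736 CPM in the controls and 677, 684 and 581 CPM in Zzz3 auxin. Feeder fibroblast markers were near 0, with 6 of 10 below the filter on low counts and a sum of 4.79 to 7.14 CPM in the 5 samples. The defining fibroblast collagen *Col1a2* had 0.66 to 1.22 CPM. The libraries differed in how levels followed the GC content of exons, which is described first because it touches every gene below.

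Genes in the top quintile of GC content minus those in the bottom quintile had a median log2 ratio of -0.61 in Control 1 and 0.50 in Zzz3 auxin 3, but only -0.06 in Control 2, 0.18 in Zzz3 auxin 1 and -0.01 in Zzz3 auxin 2. As 1 control and 1 Zzz3 auxin library leaned in opposite directions, the median log2 fold change (FC) between groups rose with GC content, from -0.22 in the lowest quintile to 0.34 in the highest. Each library was therefore also corrected for its own trend on GC content and on exon length, after which the 5 medians lay between -0.02 and 0.04. Over all genes the median log2 FC was 0.01 before and 0.01 after the correction. Its part in single results was not tested. Where the correction changed a call, the corrected value is given as well.

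**Figure D1:**
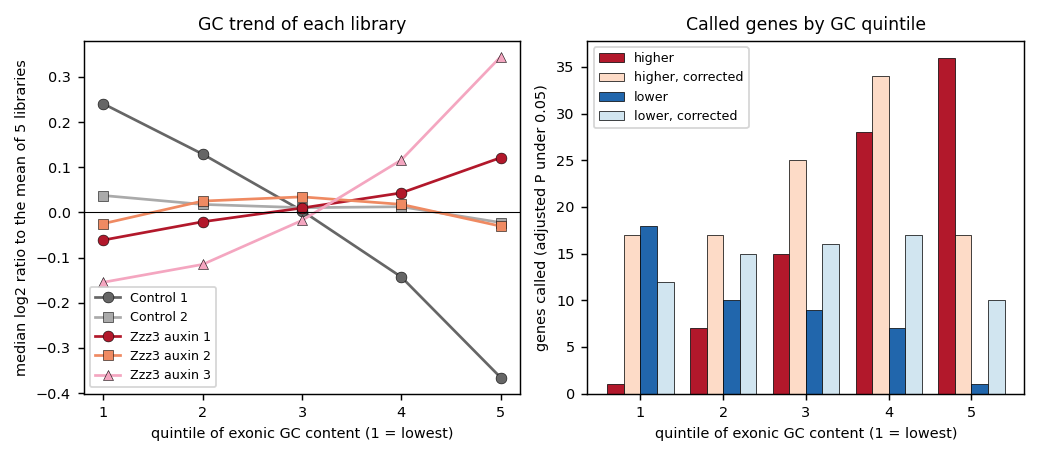
GC content and the calls. Left, median log2 ratio of each library to the mean of the 5 libraries (y axis) in quintiles of exonic GC content (x axis), 1 line per library, with Control 1 falling and Zzz3 auxin 3 rising with GC content. Right, genes called higher and lower per quintile before and after the GC and length correction; calls of higher genes went from 1 in the lowest to 36 in the highest quintile before, and were 17 in both after correction.

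Which RNAs change when ZZZ3 is lost was asked across all genes. The depletion left most RNA levels close to control: 76.0% of genes had a log2 FC between -0.5 and 0.5, and 5.95% exceeded 1 in size. At an adjusted P under 0.05, 132 genes were called, 0.753% of those tested, of which 87 were higher (0.496%) and 45 lower (0.257%). Among them 68 also passed a log2 FC of 1 in size and are called differentially expressed genes (DEGs), 49 higher and 19 lower. There were 41 higher and 19 lower with the GC and length correction, and 37 and 23 with the correction for GC content alone. Called genes that rose had a median log2 FC of 1.06 in size and those that fell 0.96, and the smallest called change was 0.53. In all 132 the samples of the groups did not overlap, which was also true of 16.8% (higher) and 18.9% (lower) of all genes tested. At an unadjusted P under 0.05 there were 3804 of the 17532 genes tested, 2041 higher and 1763 lower. Counts of list members below, called or at an unadjusted P under 0.05, are to be read against these values over all genes.

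The higher genes had a median GC content of 53.7% and the lower genes of 44.6%, against 48.8% over all genes tested. After the correction 180 genes were called (1.03%), 110 higher and 70 lower, with medians of 49.98% and 49.62%. Of the 132, 103 were called in the same direction after correction, 65 higher and 38 lower, while 29 were lost and 77 gained. In short transcripts the lower calls remained the more frequent: 18 lower against 4 higher in the quintile of shortest exonic length before, and 24 against 7 after correction. Protein-coding genes made up 84 of the 87 higher and 34 of the 45 lower, and 13634 of the 17532 genes tested. Thus 0.616% of them were called higher and 0.249% lower, against 0.496% and 0.257% of all genes. The lower genes also held 4 pseudogenes, *Rpl31-ps8*, *Gm10036*, *Gm10275* and *Rps13-ps1*, whose reads may belong to ribosomal protein genes with the same sequence, and which are named after their values were seen. Of 1023 pseudogenes tested, 0 were called higher by edgeR, with 68 at an unadjusted P under 0.05 and 2 called after correction.

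**Figure D2:**
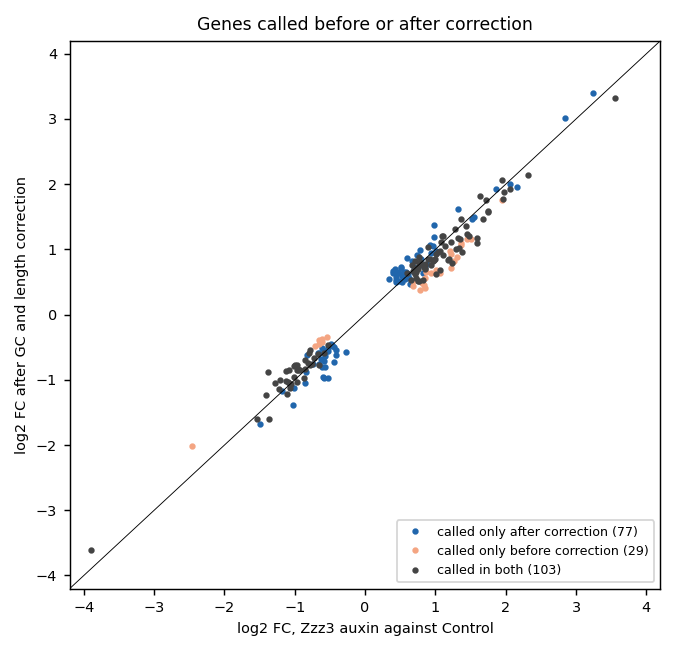
Log2 FC of each gene called before or after the GC and length correction, with the uncorrected value on the x axis and the corrected value on the y axis; the line marks equal values. The 103 genes called in both lie close to the line, the 29 called only before correction are mostly higher genes that moved towards 0, and the 77 called only after correction lie on both sides.

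The count leaned on single libraries and on the estimate of the spread. No gene was called by edgeR without Control 1 or without Control 2, although 1569 and 3909 genes had an unadjusted P under 0.05, and there were 14 calls without Zzz3 auxin 1, 841 without Zzz3 auxin 2 and 293 without Zzz3 auxin 3, and 3, 28 and 12 without Yeats2 auxin 1, 2 and 3. None of the 132 changed sign in any of 24 alternative fits. As their groups did not overlap, leaving out a library could hardly have changed it. The largest number of alternatives in which a gene was called was 19, for *Galnt6*, *Plk2* and *Lpin1*, and 92 of the 132 were called in 10 or more.

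The targeted gene was examined first. *Zzz3*, at GRCm38 chromosome 3, 152395473 to 152462826, plus strand, identifier ENSMUSG00000039068, had 186 and 182 CPM in the controls and 77.5, 96.9 and 112 CPM in Zzz3 auxin. Every Zzz3 auxin sample lay below both controls, with the lowest level in the first. The transcript fell (log2 FC -0.95, SE 0.14, adjusted P 0.0187), and was at -0.85 after the correction (adjusted P 0.0381). The adjusted P was 0.293 without Control 1, 0.0781 without Control 2, 0.0516 without Zzz3 auxin 1, 0.0645 without Yeats2 auxin 1 and 0.0521 without Yeats2 auxin 3. Exons of *Ak5* overlap those of *Zzz3* from the other strand. As no source used here says whether reads were counted by strand, reads of such partners cannot be told apart. Partners are named below for some genes only, so a gene given without a partner may still have one.

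Of the other 6 ATAC subunits outside the shared acetyltransferase module, 0 were called by edgeR, where 0.753% of all genes were called. At an unadjusted P under 0.05 there were 2 of them. *Yeats2*, the histone reader of the complex, had 90.9 and 95.8 CPM in the controls and 133, 119 and 123 CPM in Zzz3 auxin (log2 FC 0.42, adjusted P 0.386), so that the groups did not overlap although the test was not passed. *Mbip* had 44 and 40.7 CPM in the controls and 30.8, 33.8 and 32.3 CPM in Zzz3 auxin (log2 FC -0.39, adjusted P 0.109). *Dr1*, which with its partner also represses TATA-dependent transcription, had 129 and 109.6 CPM in the controls and 87.3, 103 and 80.4 CPM in Zzz3 auxin (log2 FC -0.41, adjusted P 0.118). After correction these last values were -0.13 and -0.19, nearer to 0. *Tada2a*, *Wdr5* and *Kat14* had log2 FCs of -0.09, 0.01 and 0.27. The acetyltransferases *Kat2a* and *Kat2b* had 0.28 and -0.24 (adjusted P 0.23 and 0.207).

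The 20 SAGA-specific genes had a median log2 FC of 0.03. The single call among them, beside 0.753% of all genes called, was *Sf3b3*, which also encodes a core subunit of the splicing factor SF3B. It had 671 and 659.7 CPM in the controls and 458, 486 and 441 CPM in Zzz3 auxin (log2 FC -0.53, SE 0.10, adjusted P 0.0454), and -0.47 after the correction (adjusted P 0.0439). All 3 Zzz3 auxin samples lay well below both controls. Exons of *Cog4* overlap *Sf3b3* on the opposite strand and small RNAs on the same strand.

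By a rule on size, on separation of the samples and on surviving the correction, 12 of 34 eligible higher DEGs were described. Their known roles were diverse. The largest changes were in genes with low levels in control. *Snx20*, which encodes a sorting nexin of endosomes, had 4.93 and 6.12 CPM in the controls and 31.4, 19.5 and 18.6 CPM in Zzz3 auxin (log2 FC 2.07, SE 0.28, adjusted P 0.0186). *Cdh3* (P-cadherin, an adhesion protein) had 2.57 and 1.86 CPM in the controls and 13.6, 6.6 and 5.76 CPM in Zzz3 auxin (log2 FC 1.98, SE 0.37, adjusted P 0.0404). *Smtnl1*, a smoothelin-like regulator of muscle contraction, had 3.01 and 2.59 CPM in the controls and 14.9, 9.64 and 7.96 CPM in Zzz3 auxin (log2 FC 1.96, SE 0.28, adjusted P 0.0187). In these genes Zzz3 auxin 1 stood highest and this was also seen in *Txlnb* (taxilin beta), with 2.17 and 1.86 CPM in the controls and 12.5, 5.61 and 5.15 CPM in Zzz3 auxin (log2 FC 1.95, SE 0.39, adjusted P 0.0469). Without Zzz3 auxin 1 the log2 FC of the 20 DEGs described here was still at least 0.86 in size, but 8 of the 20 were called.

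Other higher DEGs had even levels over the 3 Zzz3 auxin samples. *Plk2* (chromosome 13, 110395046 to 110400844, plus strand), a Polo-like kinase and p53 target, had 83.7 and 84.5 CPM in the controls and 219, 218 and 174 CPM in Zzz3 auxin (log2 FC 1.28, SE 0.13, adjusted P 0.00465), and 1.32 after the correction (adjusted P 0.00122). *Galnt6* (chromosome 15, 100691813 to 100729376, minus strand), which starts O-linked glycosylation of mucin-type proteins, had 33.6 and 40.7 CPM in the controls and 109, 99.9 and 95.3 CPM in Zzz3 auxin (log2 FC 1.45, SE 0.14, adjusted P 0.00465). Both rose from moderate levels, and the samples within a group were far closer to each other than to those of the other group. *Galnt6os* overlaps *Galnt6* on the opposite strand.

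*Cdkn2b*, which encodes the inhibitor p15 of the cyclin D kinases, had 2.22 and 1.95 CPM in the controls and 7.25, 6.56 and 6.16 CPM in Zzz3 auxin (log2 FC 1.68, SE 0.27, adjusted P 0.0248). Its neighbour *Cdkn2a* had 3.16 and 2.27 CPM in the controls and 6.45, 3.12 and 1.87 CPM in Zzz3 auxin (log2 FC 0.52, adjusted P 0.533), with overlap of the groups. *Mlana*, a melanosome protein gene, had 6.91 and 6.53 CPM in the controls and 17.7, 20.2 and 13.6 CPM in Zzz3 auxin (log2 FC 1.36, SE 0.20, adjusted P 0.0187). *Cdkn2b* and *Mlana* were again higher in every Zzz3 auxin sample, while *Cdkn2a*, named after its values were seen, was not. *Neurod1*, a proneural transcription factor, had 1.73 and 1.09 CPM in the controls and 4.22, 4.03 and 4.95 CPM in Zzz3 auxin (log2 FC 1.64, adjusted P 0.0368). *Trim66*, a chromatin reader, had 1.68 and 1.45 CPM in the controls and 5.18, 6.08 and 4.35 CPM in Zzz3 auxin (log2 FC 1.74, adjusted P 0.022). *Ptpn7*, a phosphatase of MAP kinases, and *Ccdc9b* completed the 12, with log2 FCs of 1.43 and 1.74 (adjusted P 0.045 and 0.035). Exons of *Cerkl* and *Gm26755* overlap *Neurod1*, the last from the opposite strand.

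**Figure D3:**
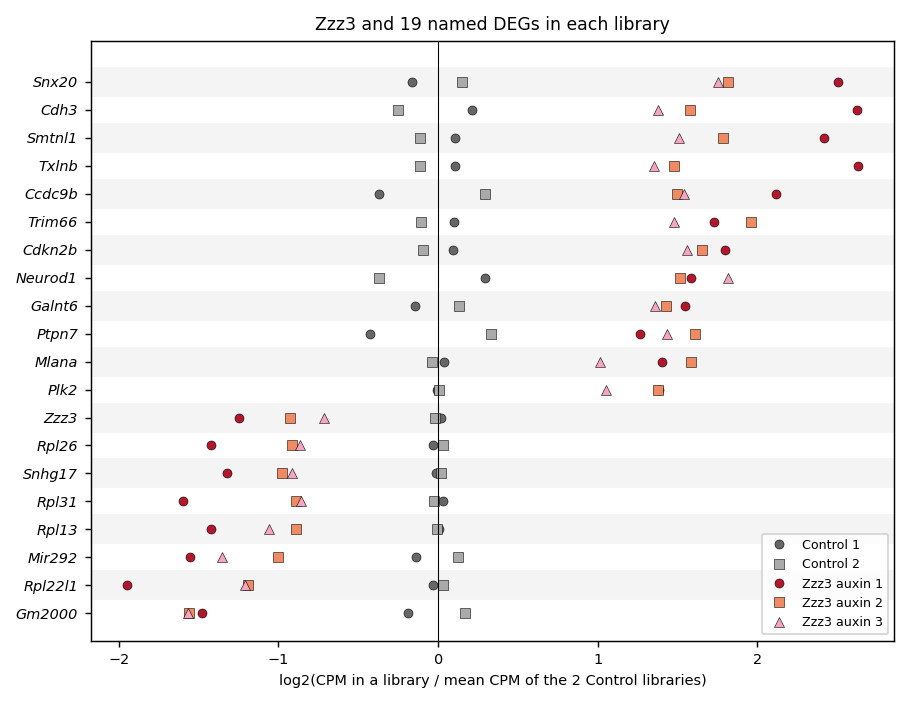
Level of *Zzz3* and of 19 of the 20 named DEGs in each of the 5 libraries, as the log2 ratio of CPM to the mean of the 2 controls (x axis), 1 row per gene and 1 symbol per library. Controls lie on both sides of 0 and all 3 Zzz3 auxin libraries lie to 1 side in every row. In most rows Zzz3 auxin 1 stands farthest out, among them *Snx20*, *Cdh3*, *Smtnl1*, *Txlnb* and *Rpl22l1*.

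The lower DEGs described, 8 of 16 eligible and 7 of them given here, were in part of 1 kind: 4 encode ribosomal proteins or a paralog, *Rpl13*, *Rpl31*, *Rpl26* and *Rpl22l1*, and *Snhg17* hosts small nucleolar RNAs (snoRNAs), which guide the modification of ribosomal RNA. The other two were *Gm2000*, a predicted gene, and *Mir292*. *Rpl22l1* (chromosome 3, 28805436 to 28807424, plus strand), the paralog of *Rpl22*, had 106 and 111 CPM in the controls and 28.1, 47.6 and 46.9 CPM in Zzz3 auxin (log2 FC -1.41, SE 0.20, adjusted P 0.0187). *Rpl13* had 345 and 342 CPM in the controls and 128, 185 and 165 CPM in Zzz3 auxin (log2 FC -1.11, SE 0.15, adjusted P 0.0183), and -1.21 after the correction (adjusted P 0.00467). *Rpl26* had 750.3 and 784 CPM in the controls and 287, 407 and 420.4 CPM in Zzz3 auxin (log2 FC -1.05, SE 0.17, adjusted P 0.0289). In these genes Zzz3 auxin 1 was the lowest sample, and the highest Zzz3 auxin sample still lay far below the lower control. *Rpl31* had 117 and 112 CPM in the controls and 37.9, 61.8 and 63 CPM in Zzz3 auxin (log2 FC -1.08, SE 0.19, adjusted P 0.0375), and *Tbc1d8*, which overlaps it from the opposite strand, was called higher (log2 FC 0.65). *Gm2000* had 8.34 and 10.7 CPM in the controls and 3.41, 3.23 and 3.21 CPM in Zzz3 auxin (log2 FC -1.53, SE 0.20, adjusted P 0.0168), with the 3 Zzz3 auxin samples close together. *Gm33051* overlaps *Rpl22l1* from the opposite strand, and *Snord68* and *Mir7079* overlap *Rpl13* on the same strand.

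The larger list of 79 cytosolic ribosomal protein genes, all tested, was then read as a whole. Called lower were 7, among them *Rpl13*, *Rpl39*, *Rpl31*, *Rpl26*, *Rps24* and *Rpl15*, against 0.257% of all genes called lower, and 0 were called higher by edgeR, where 0 also had an unadjusted P under 0.05. The log2 FC was negative in 65, 43 had an unadjusted P under 0.05 with a lower level, and in 41 the groups did not overlap, beside 18.9% of all genes. The median log2 FC was -0.50, beside 0.01 over all genes tested, and -0.52 after the correction, when 12 were called lower. *Rpl39*, on the X chromosome, had 891 and 737 CPM in the controls and 261, 418 and 462 CPM in Zzz3 auxin (log2 FC -1.10, SE 0.20, adjusted P 0.0396). *Rps24* had 1207 and 1095 CPM in the controls and 516, 670.0 and 638 CPM in Zzz3 auxin (log2 FC -0.92, SE 0.13, adjusted P 0.0187), and *Rpl15* 192 and 194 CPM in the controls and 82.8, 125 and 120.4 CPM in Zzz3 auxin (log2 FC -0.82, SE 0.16, adjusted P 0.0479). In each gene the groups were apart, and Zzz3 auxin 1 was lowest. *Nkiras1* overlaps *Rpl15* from the opposite strand.

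The size of the fall differed between samples and between genes. The median log2 ratio of the 79 genes to the control mean was -0.75 in Zzz3 auxin 1, -0.36 in Zzz3 auxin 2 and -0.28 in Zzz3 auxin 3, and without Zzz3 auxin 1 the median log2 FC was -0.36. The summed level overlapped, with 20192 and 24612 CPM in the controls and 14554, 17928 and 21622 CPM in Zzz3 auxin, while the 3 stalk protein genes had positive log2 FCs. *Rplp1*, of the ribosomal stalk, had 79.5 and 224 CPM in the controls and 197, 191 and 805 CPM in Zzz3 auxin (log2 FC 1.39, SE 0.84, adjusted P 0.395), a spread of its own within both groups. *Rplp0* and *Rplp2*, its partners in the stalk, had log2 FCs of 0.36 and 0.54 (adjusted P 0.541 and 0.342), and all 3 were highest in Zzz3 auxin 3 and lowest in Control 1. They are named after their values were seen. Only reads with a unique alignment were counted, and many ribosomal protein genes have processed pseudogenes of near-identical sequence, so their levels are uncertain.

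Transcripts of ribosomal proteins carry a run of pyrimidines at their 5′ end, the TOP motif through which growth signals act on their translation. To show what lies near the annotated start, 30 bases with the longest run of C or T within 50 bases of it (in capitals) are given in the direction of the gene, on GRCm38.p6, for *Rpl22l1* and the 6 ribosomal protein genes called lower that have a RefSeq entry.
*Rpl13*, chr8:123102324-123102353 (+): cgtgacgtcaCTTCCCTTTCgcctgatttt
*Rpl31*, chr1:39367823-39367852 (+): cctcgccacaCCTCTTCCTCCTCgcctccc
*Rpl15*, chr14:18270971-18271000 (-): tgggagaaagCCTTCTTCCTTTCCTCTggc
*Rpl26*, chr11:68901506-68901535 (+): tctcccaaccTCCTCTCCCCTTTCgctccg
*Rps24*, chr14:24490698-24490727 (+): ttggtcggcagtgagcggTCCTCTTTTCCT
*Rpl39*, chrX:37085173-37085202 (-): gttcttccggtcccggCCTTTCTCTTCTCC
*Rpl22l1*, chr3:28805499-28805528 (+): cgcaagcccgTTCTCTTCCCacggctgcag
Counted from 0 at the first base of the RefSeq gene, the runs began at 1 in *Rpl22l1*, -4 in *Rpl15*, -16 in *Rpl13* and -18 in *Rpl31*, and at -50 in *Rpl26*, 38 in *Rps24* and 36 in *Rpl39*, where they reached the edge of the searched stretch. Those of *Rpl13*, *Rpl31* and *Rpl26* end before the annotated start and those of *Rps24* and *Rpl39* lie inside the transcript, so the capitals mark runs of C or T and are not shown to be the TOP motif. A run of at least 8 C or T was found in 49 of 58 ribosomal protein genes with a RefSeq entry (84.5%), in 6 of 6 of those called lower, and in 4195 of 11380 tested genes (36.9%). The share among called members was thus close to that of their family, and a match says nothing of which factor acts on it. Among 18 further genes of TOP mRNAs, which encode translation factors, 0 were called by edgeR, where 0.753% of all genes were called. At an unadjusted P under 0.05 there were 7, all lower, and 2 were called lower after correction. The median log2 FC of the 18 was -0.10. The most abundant, the elongation factor *Eef1a1*, had 2363 and 2894 CPM in the controls and 2698, 3147 and 3063 CPM in Zzz3 auxin (log2 FC 0.18, adjusted P 0.47), and *Npm1* had 2379 and 2049 CPM in the controls and 1560.2, 1893 and 1701 CPM in Zzz3 auxin (log2 FC -0.37, adjusted P 0.127).

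Of 8 ribosomal protein paralogs, 1 was called, *Rpl22l1*, beside 0.753% of all genes. The next are named after their values were seen. *Rpl36al* and *Rpl7l1* had log2 FCs of -0.66 and -0.55 (adjusted P 0.0636 and 0.0505), and *Rpl22* itself -0.28 (adjusted P 0.291). *Rpl10l* had 89.9 and 94.5 CPM in the controls and 149, 113 and 101 CPM in Zzz3 auxin (log2 FC 0.39, adjusted P 0.203). After correction *Rpl7l1* was also called (-0.55, adjusted P 0.034).

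*Snhg17*, a noncoding host of snoRNAs, was called lower. It had 116 and 119 CPM in the controls and 47, 59.8 and 62.4 CPM in Zzz3 auxin (log2 FC -1.06, SE 0.14, adjusted P 0.0168), and -1.13 after the correction (adjusted P 0.00467), with no overlap. Of the list of 11 hosts chosen, which does not hold *Snhg17*, 9 matched and were tested. All 9 had a negative log2 FC and 8 an unadjusted P under 0.05. By edgeR 0 were called before correction (0.753% of all genes were) and 0 after it (1.03% of all genes were). Their median log2 FC was -0.60, and -0.43 after correction. *Gas5* had 760.1 and 714 CPM in the controls and 367, 606 and 493 CPM in Zzz3 auxin (log2 FC -0.59, adjusted P 0.102), and *Snhg1* 415 and 387 CPM in the controls and 209, 308 and 279 CPM in Zzz3 auxin (log2 FC -0.60, adjusted P 0.081). Zzz3 auxin 1 was again the lowest, and both controls lay above all 3 Zzz3 auxin samples. Both *Gas5* and *Snhg1* are known TOP transcripts.

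The snoRNAs themselves were counted as genes of their own where reads did not also hit another gene. Of 139 tested, 1 was called lower, beside 0.257% of all genes. This was *Gm26202*, with 12.9 and 10.9 CPM in the controls and 3.91, 5.75 and 3.88 CPM in Zzz3 auxin (log2 FC -1.39, SE 0.22, adjusted P 0.0241). Its log2 FC moved to -0.89 (adjusted P 0.0415) after correction, the largest move of all called genes with a symbol. The median of the list was -0.51 before and -0.18 after correction. Reads of unspliced host RNA may be counted in them.

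*Mir292* (GRCm38 chromosome 7, 3219189 to 3219270, plus strand), a hairpin of the miR-290 to miR-295 cluster that marks ESCs, had 24.3 and 29.2 CPM in the controls and 9.09, 13.3 and 10.4 CPM in Zzz3 auxin (log2 FC -1.28, SE 0.20, adjusted P 0.0241), and -1.04 after the correction (adjusted P 0.0158). The counts are of fragments of the primary transcript, not of mature miRNA. Mature arms of the cluster are printed with the seed (bases 2 to 8) in capitals, as RefSeq gives them, since the arms fall into groups by seed.
mmu-miR-292a-5p: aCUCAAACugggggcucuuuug
mmu-miR-290a-5p: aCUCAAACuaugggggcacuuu
mmu-miR-293-5p: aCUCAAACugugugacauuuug
mmu-miR-291a-3p: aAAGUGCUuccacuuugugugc
mmu-miR-294-3p: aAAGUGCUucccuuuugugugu
mmu-miR-295-3p: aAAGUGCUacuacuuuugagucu
The first 3 arms share the seed CUCAAAC, and the last 3 share AAGUGCU. Genes counted for the neighbouring hairpins did not pass the test: *Mir293* and *Mir295* had log2 FCs of -0.79 and -0.73 (adjusted P 0.092 and 0.115), *Mir291a* -0.64, *Mir294* -0.36, *Mir291b* -0.29 and *Mir290a* -0.24. All 7 values were negative before the correction, and those of *Mir290a* and *Mir294* were 0.14 and 0.07 after it. *Nlrp12* and *Mir292b* overlap *Mir292* on the opposite strand.

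Most targets of p53, the transcription factor that answers DNA damage and ribosomal stress, had higher levels in Zzz3 auxin. Of 20 tested, 6 were called higher, *Plk2*, *Sesn2*, *Ptpn14*, *Phlda3*, *Mdm2* and *Btg2*, against 0.496% of all genes, and 0 lower. The log2 FC was positive in 18, 16 had an unadjusted P under 0.05, and in 16 the groups did not overlap, beside 16.8% of all genes. The median log2 FC was 0.64 before and 0.64 after the correction, beside 0.01 over all genes. It was 0.64, 0.73 and 0.54 in the 3 Zzz3 auxin samples, so that no sample carried it alone, and stayed between 0.60 and 0.68 with any of the 5 libraries left out. The list was chosen with its direction in these samples known.

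*Mdm2* (chromosome 10, 117688875 to 117710758, minus strand), the ubiquitin ligase that limits p53, had 191 and 177 CPM in the controls and 307, 333 and 265 CPM in Zzz3 auxin (log2 FC 0.71, SE 0.13, adjusted P 0.0375), and 0.82 after the correction (adjusted P 0.0051). *Sesn2*, a sestrin that restrains mTORC1 and is also induced by ATF4, had 71.3 and 94.6 CPM in the controls and 153, 148 and 200.3 CPM in Zzz3 auxin (log2 FC 1.01, SE 0.17, adjusted P 0.0359), and 0.63 after correction (adjusted P 0.0381). *Ptpn14*, a phosphatase that acts on YAP, had 50.4 and 47.5 CPM in the controls and 95.5, 107 and 78 CPM in Zzz3 auxin (log2 FC 0.94, SE 0.14, adjusted P 0.0223). In all of them every Zzz3 auxin sample exceeded both controls. *Btg2*, an antiproliferative regulator of deadenylation, had 73.6 and 74.3 CPM in the controls and 115, 132 and 109 CPM in Zzz3 auxin (log2 FC 0.68, SE 0.13, adjusted P 0.0402). *Phlda3*, an inhibitor of AKT, had 54.2 and 71 CPM in the controls and 103, 108 and 112 CPM in Zzz3 auxin (log2 FC 0.78, SE 0.14, adjusted P 0.0402), with Control 1, the library that falls with GC content, below Control 2, and was no longer called at 0.38 (adjusted P 0.218) after correction.

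After correction 10 of the 20 were called: *Phlda3* was lost, and *Ccng1*, *Trp53inp1*, *Polk*, *Eda2r* and *Perp* were gained, with corrected log2 FCs of 0.63, 0.66, 0.65, 0.72 and 0.85. *Bbc3*, the proapoptotic PUMA, had 3.45 and 4.17 CPM in the controls and 8.56, 7.66 and 13.3 CPM in Zzz3 auxin (log2 FC 1.35, adjusted P 0.0505) and was short of the threshold in both fits. The classical target *Cdkn1a*, which encodes the cell cycle inhibitor p21, had 78.2 and 53.3 CPM in the controls and 79.2, 82.7 and 33.3 CPM in Zzz3 auxin (log2 FC -0.01, SE 0.31, adjusted P 0.993), where Zzz3 auxin 3 was lowest. *Sesn1* had a log2 FC of -0.01. The death receptor gene *Fas* had the largest log2 FC of the list, 1.56, from 8, 6, 21, 40 and 9 reads in the 5 libraries (adjusted P 0.127). The transcript of p53 itself, *Trp53*, had 171 and 159 CPM in the controls and 129, 146 and 116 CPM in Zzz3 auxin (log2 FC -0.34, adjusted P 0.377), and does not report the amount of the protein.

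The p53 half-site of 10 bases (the full consensus site is a pair of such half-sites, which was not searched for), sought on either strand in RefSeq promoters from 250 bases before to 50 after the start, was found in 7 of 15 p53 target genes with an entry (46.7%) and in 8.20% of all tested genes. Of the 6 called targets it was found in *Mdm2* alone. It is shown in capitals for *Mdm2* and for *Cdkn1a*, a target with a log2 FC near 0, on GRCm38.p6.
*Mdm2*, chr10:117710925-117710954 (-): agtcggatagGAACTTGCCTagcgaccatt
*Cdkn1a*, chr17:29090896-29090925 (+): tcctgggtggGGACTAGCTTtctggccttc
A match is a description of the letters, and known sites of such genes often lie outside this window.

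**Figure D4:**
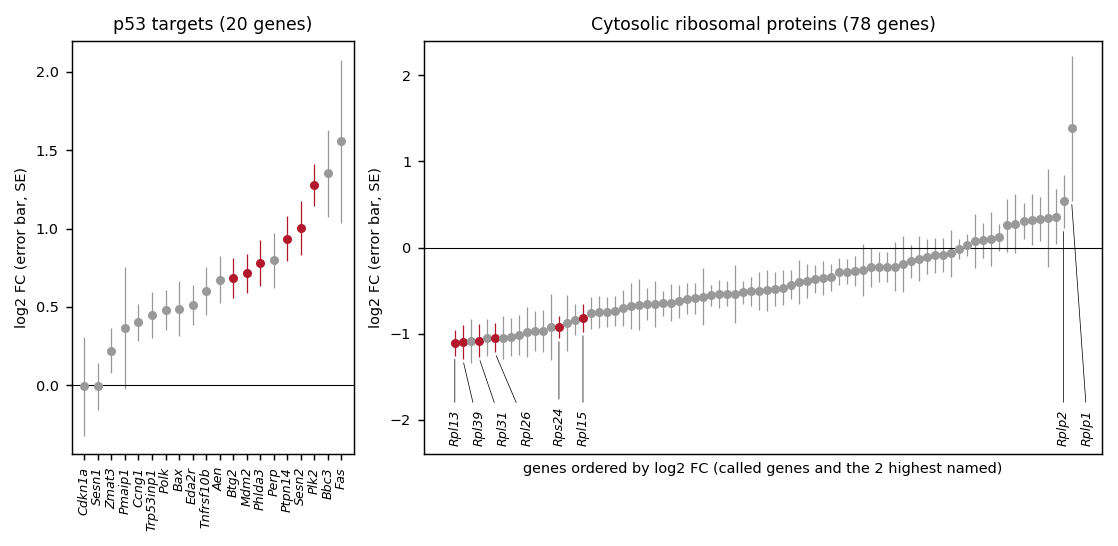
Log2 FC of Zzz3 auxin against Control with its SE (y axis) for each of 20 p53 targets (left) and 78 of the 79 cytosolic ribosomal protein genes (right), ordered by value; red marks genes called at an adjusted P under 0.05. On the left 18 values are above 0 and 6 are red, on the right 64 are below 0 and 6 are red, with *Rplp1* at the far right at 1.39.

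Cell cycle genes were covered by lists of the G1/S transition, replication and mitosis. Their counts are to be read against the 0.753% of all genes called and the 3804 of 17532 with an unadjusted P under 0.05. Of 19 genes of the G1/S transition, 1 was called: *Ccne2*, which encodes cyclin E2, had 59.7 and 56.6 CPM in the controls and 24.8, 26.3 and 29 CPM in Zzz3 auxin (log2 FC -1.12, SE 0.13, adjusted P 0.0131), and -0.87 after the correction (adjusted P 0.025), with no overlap. *Ints8* overlaps it from the opposite strand. The paralog *Ccne1* had 196 and 225 CPM in the controls and 188, 184 and 176 CPM in Zzz3 auxin (log2 FC -0.20, adjusted P 0.295). All 3 Zzz3 auxin samples lay below both controls in *Ccne1* too, which is named after its values were seen. Among 24 replication genes 0 were called by edgeR, with 7 at an unadjusted P under 0.05 and 12 positive and 12 negative values. *Mcm5* and *Mcm6*, of the replicative helicase, had log2 FCs of 0.52 and 0.28 (adjusted P 0.0897 and 0.179). Of 18 mitosis genes 0 were called, with 7 at an unadjusted P under 0.05, and *Top2a*, a topoisomerase of mitotic chromosomes, had a log2 FC of -0.19.

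Of 17 pluripotency genes of the naive state, 0 were called by edgeR, where 0.753% of all genes were called. At an unadjusted P under 0.05 there were 2, both higher. The log2 FC was negative in 12 and positive in 5, with a median of -0.12. The most abundant, *Tfcp2l1*, had 2545 and 2146 CPM in the controls and 1802, 2207 and 1788 CPM in Zzz3 auxin (log2 FC -0.28, adjusted P 0.34), and *Nanog* a log2 FC of -0.22 (adjusted P 0.319). *Pou5f1* (OCT4), given above, had a log2 FC of 0.62 (adjusted P 0.106), with Control 1 below all others, and 0.43 after correction. *Zfp42*, named after its values were seen, had a log2 FC of 0.30 (adjusted P 0.211). The largest log2 FC of the list, 1.47, was that of *Dppa3* (adjusted P 0.242), with overlap of the groups. Lists of primed epiblast, trophectoderm, primitive endoderm, neuroectoderm and mesendoderm markers held 0 calls, with 1, 2, 0, 1 and 1 members at an unadjusted P under 0.05. The log2 FC of *Dnmt3b*, high in the primed state, was 0.23, and those of the others were -0.13 for *Cdx2* of the trophectoderm, 0.67 for *Pdgfra* of the primitive endoderm, 0.56 for *Nes* of neural precursors and 0.40 for the mesodermal factor *T*. None of these 5 passed the test. *Sox1*, of the neuroectoderm, had -0.81 (adjusted P 0.386). In the order given, the 5 lists had 5, 3, 2, 2 and 4 positive and 3, 3, 2, 2 and 0 negative values. Their medians were 0.12, 0.02, -0.04, 0.26 and 0.28.

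Genes of the 2-cell-like state, a rare condition of ESC cultures in which Zscan4 genes are active, had the highest list median, 1.95, and 2.17 after correction. All 7 tested members had a positive log2 FC and an unadjusted P under 0.05, yet 0 were called by edgeR, and *Zscan4f* alone was called after correction (adjusted P 0.042). Together with 2 members below the filter on low counts, their summed level was 4.34 and 3.04 CPM in the controls. It was 27.4, 8.76 and 7.83 CPM in Zzz3 auxin, so that Zzz3 auxin 1 lay well above the rest. *Zscan4d* had 28 and 18 reads in the controls and 223, 58 and 27 in Zzz3 auxin, and *Gm8300* had 32 and 26 against 234, 80 and 41. *Zscan4c* had 3 and 6 against 79, 18 and 7, and *Zscan4f* had 3 and 4 against 53, 22 and 11. Members with so few reads in the controls passed the filter on low counts through the samples where they were high. The 2 members that fell below the filter were not tested. The shared direction of this list is thus in part set by the filter. The germ cell factor gene *Dppa3*, named after its values were seen, and the imprinted noncoding RNAs *Rian* and *Kcnq1ot1* were also highest in Zzz3 auxin 1, the last with 685 and 566 CPM in the controls and 1057, 455 and 416 CPM in Zzz3 auxin. Without that sample the list median was 1.44. A cause was not tested.

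Of 8 adhesion genes, cadherins and catenins, *Cdh3* was the 1 called, beside 0.753% of all genes. *Cdh1* (E-cadherin), the main cadherin of ESCs, had 458 and 422 CPM in the controls and 738, 585 and 383 CPM in Zzz3 auxin (log2 FC 0.37, adjusted P 0.327), with overlap. Of 17 Nodal, BMP and FGF genes 0 were called, with 5 at an unadjusted P under 0.05, and *Etv5* and *Fgf4* had log2 FCs of 0.15 and -0.12. The Notch receptor gene *Notch1* had 27.4 and 38.9 CPM in the controls and 93.1, 51.6 and 80.9 CPM in Zzz3 auxin (log2 FC 1.18, adjusted P 0.0454), and its ligand gene *Jag2* 1.83 and 2.77 CPM in the controls and 6.87, 5.17 and 8.97 CPM in Zzz3 auxin (log2 FC 1.59, adjusted P 0.045). Both fell towards 0 under the correction, to 0.84 and 1.10, but were still called. *Hes1*, a common target of Notch, had 30.6 and 35.7 CPM in the controls and 31.1, 34.4 and 37.9 CPM in Zzz3 auxin, with overlap of the groups. *Hmcn2*, a hemicentin of the extracellular matrix, moved most among the higher genes with *Jag2*, from 1.22 to 0.72 (adjusted P 0.13), and was lost. *Notch1*, *Hes1* and *Cdh1* were described after their values were seen.

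The lists of stress programmes other than p53 are so short that at the share over all genes, 0.753%, less than 1 call would fall in any of them. Among 17 ATF4 targets *Sesn2* was called, with a list median of 0.05. Of 9 NRF2 targets 0 were called before correction, with 1 at an unadjusted P under 0.05, and *Gsta4* was called after it, at 0.50 (adjusted P 0.0381). *Cyp1a1*, the best known target of the aryl hydrocarbon receptor, which indole compounds can activate, had 153 and 169.5 CPM in the controls and 182, 211 and 229 CPM in Zzz3 auxin (log2 FC 0.36, adjusted P 0.129), and of the 7 genes of its list 0 were called, with 1 at an unadjusted P under 0.05. Heat shock, hypoxia, interferon and cholesterol lists held 0 calls by edgeR, with 2, 6, 0 and 8 members at an unadjusted P under 0.05. An abundant member of the first, the second and the last, *Hsp90aa1*, *Ldha* and *Hmgcs1*, had log2 FCs of -0.12, -0.36 and -0.02. *Mycn* and *Max*, of the MYC network, had log2 FCs of 0.28 and 0.13, and 0 of 9 genes of that list had an unadjusted P under 0.05.

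Some lists followed single libraries. The 58 replication-dependent histone genes tested had a median log2 FC of 0.99, and 0 were called by edgeR, with 10 at an unadjusted P under 0.05. The summed level of all 70 genes of that list, 12 of them below the filter, was 1687 and 3069.9 CPM in the controls and 2289, 2128 and 4268 CPM in Zzz3 auxin. It was lowest in Control 1 and highest in Zzz3 auxin 3, the same libraries that leaned on GC content. The median log2 FC of the 58 was 0.15 without Zzz3 auxin 3 and 0.67 after correction, when 1 was called lower. The 17 mitochondrially encoded genes had a median of -0.61, and -0.19 after correction, and 0 were called, with 6 at an unadjusted P under 0.05. Their most abundant mRNA, *mt-Co1*, had a log2 FC of -0.03. The small nuclear RNA *Rn7sk* had 7916 and 16359 CPM in the controls and 11019, 11621 and 30038 CPM in Zzz3 auxin (log2 FC 0.53, adjusted P 0.578), with wide spread in both groups. *Malat1*, of nuclear speckles, had a log2 FC of -0.34, and of the 11 nuclear noncoding RNAs that include both 0 were called, with 2 at an unadjusted P under 0.05. The 19 imprinted genes had a median of 0.09 and 0 calls, with 4 at an unadjusted P under 0.05. Of 10 genes of DNA methylation 0 were called and 1 had an unadjusted P under 0.05, *Uhrf1*, the partner of DNMT1, at 0.46 (adjusted P 0.0882), while *Tet1* had -0.14. Of 14 germline genes 0 were called, with 4 at an unadjusted P under 0.05, and *Dazl* was called higher after correction, at 0.67 (adjusted P 0.0252).

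**Figure D5:**
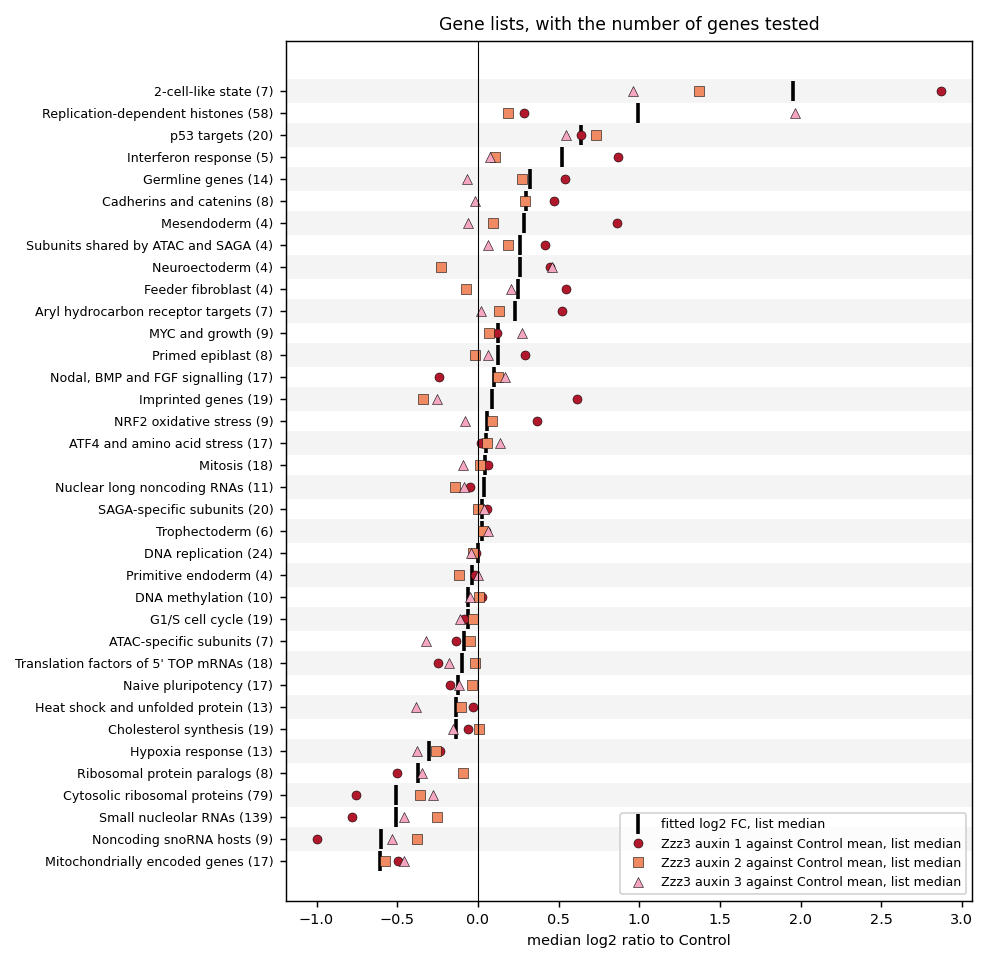
Median log2 ratio to Control (x axis) of each of 36 gene lists (y axis, number of genes tested in brackets), as the median of the fitted log2 FC (black bar) and as the median in each Zzz3 auxin library (symbols). The 3 libraries lie close together for p53 targets (0.54 to 0.73), while Zzz3 auxin 1 stands apart for 2-cell-like genes and noncoding snoRNA hosts and Zzz3 auxin 3 for histones.

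For the 20 DEGs described and *Zzz3*, the Yeats2 auxin samples were set beside Zzz3 auxin in a direct contrast of the same fit. The controls entered only its filter, its scaling and its estimate of the spread. Over all genes 0 were called by edgeR, with 1095 at an unadjusted P under 0.05. *Zzz3* had the smallest adjusted P, 0.14, with 189, 183 and 191 CPM in Yeats2 auxin and a log2 difference (Yeats2 auxin minus Zzz3 auxin) of 0.98 (SE 0.13). *Galnt6* had 90.2, 113 and 97.3 CPM in Yeats2 auxin, *Plk2* had 179.7, 203 and 200.1 CPM in Yeats2 auxin, and *Rpl13* had 164, 173 and 146 CPM in Yeats2 auxin, with log2 differences of -0.02, -0.07 and 0.01. *Txlnb* differed most among the 20, with 3.09, 2.71 and 3.84 CPM in Yeats2 auxin and a log2 difference of -1.28 (SE 0.32, adjusted P 0.779). Of the 20, 4 had an unadjusted P under 0.05, *Txlnb*, *Snx20*, *Cdh3* and *Cdkn2b*, all lower in Yeats2 auxin. As the 20 were chosen for large changes in the same Zzz3 auxin samples, values nearer to the controls in Yeats2 auxin can follow from that choice. Of the 132 called genes 18 had an unadjusted P under 0.05 in this contrast, which shows neither a response to the loss of 1 subunit alone nor equal responses.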

How the data were processed

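Total RNA of 3 Zzz3 auxin, 2 Control and 3 Yeats2 auxin samples was sequenced. Gene counts were used as deposited by the authors, who trimmed reads, removed ribosomal RNA reads, aligned to mm10 with STAR 2.5.3a and counted unique alignments with HTSeq 0.6.1p1 in union mode, and who tested them with DESeq2 1.16.1 in R 3.3.2. A strand setting is not given in the sources used here. The protocol describes stranded total RNA after ribosomal depletion, while a label reads polyA RNA.

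Groups followed the labels. Genes were filtered by filterByExpr and all 8 libraries were fitted with the robust quasi-likelihood test of edgeR 4.0.16 in R 4.3.3 (trimmed mean of M values, 2-sided, Benjamini-Hochberg over 17532 genes, adjusted P under 0.05; DEGs also log2 FC over 1 in size). The correction used lowess (span 0.3) on GC content, then log exonic length, per library. Annotation matched 55141 of 55401 identifiers, and 260 had no match. The 36 gene lists, the rule for named genes and the tests were chosen with earlier results of these data known. The rule named *Zzz3* and ATAC subunits, the 12 higher and 8 lower DEGs with the largest smaller FC of both fits (mean of at least 2 CPM, no overlap, called in both), called list members, the 3 called genes that moved most under correction, and up to 2 abundant members of lists without calls. Promoters, starts and miRNAs came from RefSeq (GRCm38.p6), which matched 11380 genes.

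Alternatives were other scaling, filters, sample sets, the replicate block, leaving out libraries, DESeq2 1.42.0 and limma 3.58.1 (voom). Data were simulated for Zzz3 auxin against Control (17532 genes, 200 changed, 5 draws). In them edgeR recovered 90.8% of changes of 1.5 and 96.8% of changes of 2 on the log2 scale. Of its calls 5.58% were false, against 11.5% for DESeq2. The simulated libraries had no GC trend, and only genes above a minimum level were changed. The rates therefore need not hold for the real libraries. Samples of a group differed by more than sampling noise. Assigned reads ranged from 14315120 to 27884704 per library. Some genes that the rule named are not reported here. Figures were drawn with matplotlib 3.10.9.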

Additional observations from a re-analysis of the deposited data

How the results depend on the processing

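Of the 132 genes called, 0 changed sign in any of the 24 alternatives, which says little as their groups did not overlap. Of these genes 4 fell under the filter of a mean of at least 1 CPM, and a gene was called in a median of 11. Counts of called genes, with DEGs in brackets, were 1542 (430) with no filter on low counts, 1105 (235) with DESeq2, 0 (0) with only Control and Zzz3 auxin in the fit, where 2606 genes had an unadjusted P under 0.05, and 18 (16) without Control 1 and Zzz3 auxin 3 together. With 1 library left out they ranged from 0 to 841 (0 to 330). When the GC and length correction was combined with leaving out a library, which was chosen after seeing the data, they were 0 (0) without Control 1, 0 (0) without Control 2, 110 (39) without Zzz3 auxin 1, 360 (130) without Zzz3 auxin 2 and 420 (145) without Zzz3 auxin 3. The share of higher DEGs was 72.1%, and 83.0% with no filter, 82.6% with DESeq2 and 61.7% with the GC correction alone. The cause of these shifts was not tested. Replicate numbers were not shown to pair the samples, as same-numbered Control and Zzz3 auxin samples correlated in their deviations at 0.08 and -0.17. With 2 controls the deviations of 1 mirror those of the other, so these correlations cannot exclude a pairing. With the replicate block 42 genes (33 DEGs) were called, and with the replicate block and the correction together 68 (34).

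*Zzz3* had a log2 FC of -0.94 with only Control and Zzz3 auxin in the fit (adjusted P 0.159), and between -1.06 and -0.80 with 1 library left out (adjusted P 0.00389 to 0.293). With the correction and without Control 1, Control 2 or Zzz3 auxin 2 it was -0.93, -0.78 and -0.85 (adjusted P 0.276, 0.204 and 0.0509). Of 3756 values of single genes under an alternative, 2596 were still called in the same direction or, if called in neither fit, moved by at most 1 SE. Another 713 were no longer past the threshold, 112 came to pass it, and 335 of genes called in neither fit moved by more than 1 SE. In genes called in either fit 0 values changed sign. For genes called in neither fit the sign was not compared in this count. Of 216 list medians 166 stayed within the spread between libraries. Depth limits genes of few reads: Zzz3 auxin 3, with 14315120 assigned reads, was the shallowest library. With 2 controls, the call of most genes rests on both, and differences that passed no test may exist at this size.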

Other observations

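Among calls in no list, several higher and lower genes had tight groups, and all are named after their values were seen. *Lpin1*, a phosphatidate phosphatase of lipid synthesis, had 57.3 and 61.1 CPM in the controls and 132, 124 and 134 CPM in Zzz3 auxin (log2 FC 1.14, SE 0.12, adjusted P 0.00465). *Icam1*, an adhesion receptor, had 44.8 and 61.9 CPM in the controls and 117, 90 and 116 CPM in Zzz3 auxin (log2 FC 1.01, adjusted P 0.0286), and *Tap1*, of the peptide transporter for antigen presentation, 1.48 and 2 CPM in the controls and 4.14, 4.21 and 5.09 CPM in Zzz3 auxin (log2 FC 1.35, adjusted P 0.0396). All 3 were higher in every Zzz3 auxin sample and were also called after correction for GC content and length. Lower were *Myb*, a transcription factor, at 11.2 and 9.25 CPM in the controls and 5.41, 5.28 and 5.15 CPM in Zzz3 auxin (log2 FC -0.95, adjusted P 0.045), and *Nsd2*, a histone H3 methyltransferase, at 196 and 162 CPM in the controls and 105, 126 and 105 CPM in Zzz3 auxin (log2 FC -0.68, adjusted P 0.0427). *Fam111a* and *Pclaf*, whose proteins bind the sliding clamp PCNA, had log2 FCs of -0.99 and -0.80 (adjusted P 0.0187 and 0.0368). *Sult6b1*, *Platr3* and *Emp1* had -1.21, -1.09 and -1.01. These too lay below both controls in every Zzz3 auxin sample.

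Among the genes called lower, 0.257% of all tested, *Cct4* and *Cct7* encode subunits of the cytosolic chaperonin, which folds actin and tubulin. The chaperonin was in no list and its genes are named after their values were seen. *Cct4* had 945 and 889.7 CPM in the controls and 414, 533 and 578 CPM in Zzz3 auxin (log2 FC -0.85, SE 0.14, adjusted P 0.0322), and *Cct7* had 669.7 and 763 CPM in the controls and 377, 425 and 454 CPM in Zzz3 auxin (log2 FC -0.78, SE 0.14, adjusted P 0.0377). The other subunit genes had log2 FCs of -0.10 (*Cct2*), 0.17 (*Cct3*), 0.18 (*Cct5*), -0.29 (*Cct6a*), -0.42 (*Cct8*) and -0.27 (*Tcp1*), and did not pass the test. The subunits are known to occur in equal numbers in the complex. The genes with the largest fitted changes had few reads: *Zfp986* had 40 and 27 reads in the controls and 2, 4 and 1 in Zzz3 auxin, and *C4b* had 2 and 1 reads in the controls and 31, 17 and 13 in Zzz3 auxin. The imprinted noncoding RNA *Rian*, with 1034 and 949 CPM in the controls and 1518, 816 and 831 CPM in Zzz3 auxin, stood highest in Zzz3 auxin 1. The summed level of the 22 imprinted genes of the list, 3 of them below the filter, was 4396 CPM in Zzz3 auxin 1. It was 2329 and 2403 CPM in the other Zzz3 auxin samples and 3117 and 2822 CPM in the controls.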
